A study of Mus musculus with 5 samples.

Results

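The genes described here are 9 mouse genes that make, carry or read retinoic acid, together with related aldehyde dehydrogenases: Aldh1a1, Aldh1a2, Aldh1a3, Aldh3a1, Aldh3b1, Crabp1, Crabp2, Rarb and Rarg. They were chosen by name, but with earlier results of these data known. Each was found on 1 probe set that names it alone, 9 of 19938 genes measured. The signals come from 5 cultures of mouse pancreatic cells, 1 Affymetrix whole-transcript array each. The normal ductal group held 2 cultures in which a Pdx-1Cre transgene, active in the pancreatic lineage, is combined with a pair of floxed p53 alleles (p53L/L). The PDAC group held 3 cultures of primary pancreatic ductal adenocarcinoma cells with those same alleles and 1 floxed allele of Apc (APCL/+), so that the groups share the Cre transgene and the p53 alleles. They are called normal and tumour cultures here, with N1 and N2 for normal ductal replicates 1 and 2 and P1 to P3 for PDAC replicates 1 to 3. The title of normal ductal replicate 2 leaves out Cre and the word ductal, and that of PDAC replicate 3 adds the words mutant cell. The labels give a passage limit of 6 and 10% serum, but no age, clone or number of animals. Thus p-values measure only the spread between these cultures, and the small number of arrays limits the precision.

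Retinol enters cells from a carrier protein in blood, is oxidised to retinal, and is then turned into retinoic acid by retinal dehydrogenases of the Aldh1a group. Cellular binding proteins (Crabp) carry the acid to enzymes that clear it or to nuclear receptors (Rar), which bind DNA as partners of Rxr proteins and switch their targets on when the acid is bound. Aldh3 enzymes oxidise other aldehydes, such as those from lipid peroxidation, and ALDH activity is widely used to mark progenitor-like cells in normal and cancerous pancreas.

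The receptor gene Rarb is itself a known target of retinoic acid, through a response element just before its start, and the same holds for Cyp26a1, which encodes an enzyme that clears the acid. The 250 bases before the start are shown for both genes because they hold the same kind of element. The signals of both genes were also highest in the same culture, and the choice was made after the values were seen. For Cyp26a1 the step was small (4.42 in N1, P1 and P2, 4.39 in N2 and 4.89 in P3). The sequences are from RefSeq in the GRCm38.p6 build, 5′ to 3′ on the strand of the gene: Rarb on the minus strand at chr14:16575477-16575726 and Cyp26a1 on the plus strand at chr19:37697558-37697807. Capitals mark a match to a pair of direct-repeat hexamer half-sites 5 bases apart (DR5). Only the last 5 bases of each hexamer were searched, so the first base of the first hexamer lies just outside the capitals.
Rarb: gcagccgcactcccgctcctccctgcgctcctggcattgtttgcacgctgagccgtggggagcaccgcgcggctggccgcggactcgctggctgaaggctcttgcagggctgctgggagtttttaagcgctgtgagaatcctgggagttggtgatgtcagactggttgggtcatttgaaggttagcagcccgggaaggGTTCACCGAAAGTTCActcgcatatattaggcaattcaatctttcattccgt
Cyp26a1: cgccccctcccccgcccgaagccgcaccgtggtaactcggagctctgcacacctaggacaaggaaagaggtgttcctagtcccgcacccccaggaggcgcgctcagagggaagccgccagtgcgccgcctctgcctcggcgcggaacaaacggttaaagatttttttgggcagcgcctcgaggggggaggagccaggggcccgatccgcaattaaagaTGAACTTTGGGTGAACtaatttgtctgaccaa
The motif searched was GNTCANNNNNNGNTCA, on either strand. In Rarb it lies on the strand of the gene from base -52 to base -37 before the start. In Cyp26a1 it lies on the opposite strand from -32 to -17. Rarb spans chr14:16430839-17082331, so the start shown lies inside the gene. Whether the probe set reads transcripts from this start was not tested. Read on the strand of the motif, the matches are GTTCACCGAAAGTTCA in Rarb and GTTCACCCAAAGTTCA in Cyp26a1, with 1 substitution, G8C, counted from 1 at the 5′ end of the match in Rarb. Of 32851 windows of this length in the reference table, 0.776% held the motif. A narrower form contained in it, GTTCANNNNNNGTTCA, was held by 0.0670% and is matched by both genes. That form was written after the half-sites in Rarb, so the match in Rarb was fixed in advance and its share is a description only. Of the 9 genes, 6 had windows, 8 in all. Rarb alone of the 6 held the DR5 motif, and none of the 8 windows held the shorter-spaced DR2 form GNTCANNNGNTCA, found in 0.889% of all windows.

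The labels were first set beside the signals. Apc, whose floxed allele separates the groups, had a log2 signal of 9.23 and 9.02 in N1 and N2 and of 9.001, 9.06 and 8.58 in P1 to P3. The files do not say which part of Apc is floxed or where the probes lie, so this signal checks little. Of 12 duct markers 10 were measured. Epcam, an adhesion protein of epithelial cells, stood at 10.19 and 9.78 in N1 and N2 and at 5.25, 4.84 and 7.605 in P1 to P3. This epithelial signal was thus lowest in P1 and P2. The other measured duct markers were also below both normal cultures in P1 and P2, except Sox9 in P2. Sox9 stood at 10.93 and 10.20 in N1 and N2 and at 9.41, 10.39 and 10.39 in P1 to P3. N2 and P3 stood apart in markers of other cell types, given beside the genes they touch.

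The plot of signals by array shows that many of these genes spread widely among the tumour cultures. For 5 of the 9 genes (Aldh1a1, Aldh1a2, Aldh3a1, Crabp2 and Rarb) the PDAC arrays lay more than 2 log2 units apart, beside 2.3% of all genes, and over all 5 arrays the same 5 genes spanned more than 2 units, beside 6.52% of all genes. P3 had the highest signal for 5 of the 9, namely Aldh1a1, Aldh1a3, Aldh3a1, Aldh3b1 and Rarb, beside 16.1% of all genes. P2 had the highest signal for Crabp1, Crabp2 and Rarg, and N2 for Aldh1a2. These shares are descriptions without a test.

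**Figure D1:**
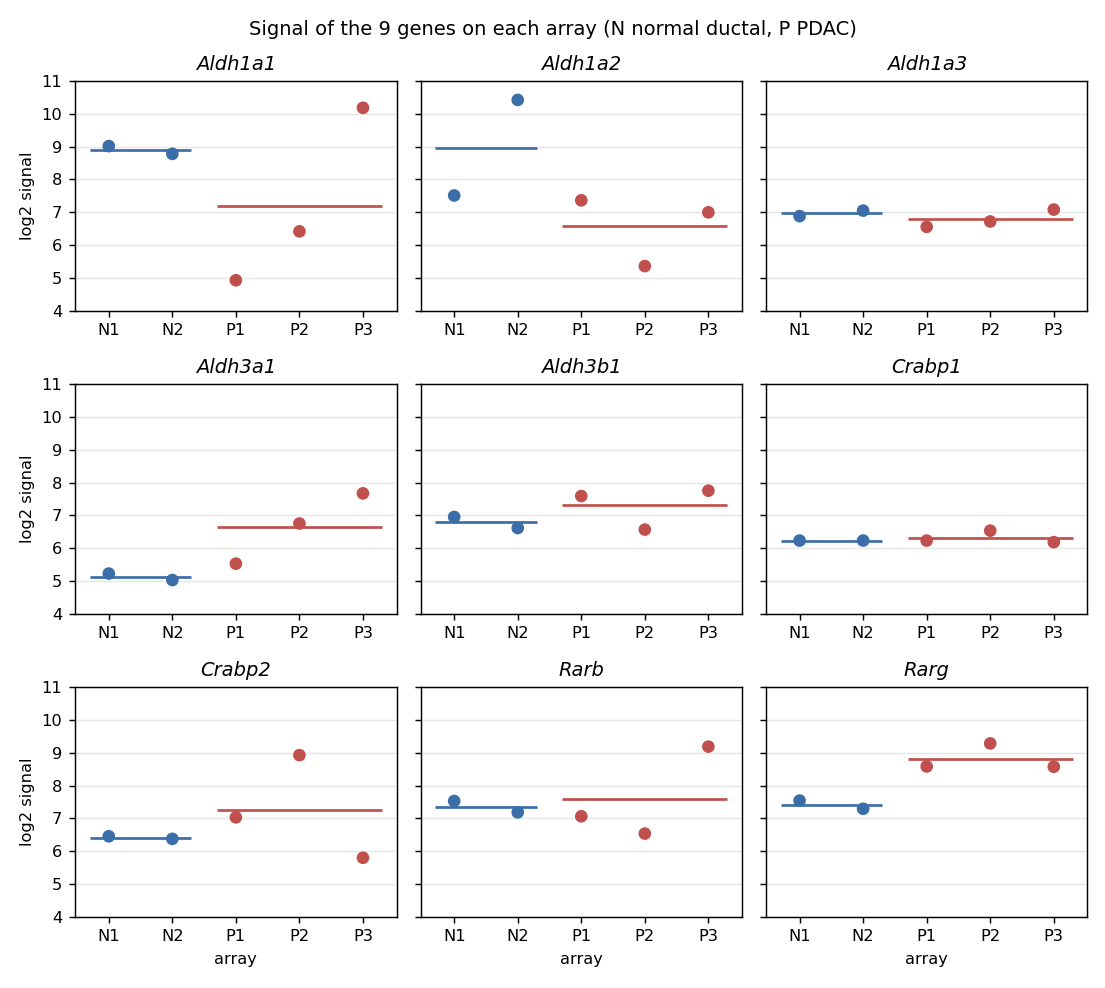
Log2 signal (vertical axis) of each of the 9 genes on the 5 arrays (horizontal axis; N1 and N2 normal ductal, P1 to P3 PDAC). Points are single arrays and lines are group means. Aldh1a1 runs from 4.93 to 10.18 within the PDAC group, while all 3 PDAC arrays lie above both normal ductal arrays for Rarg.

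Between the groups, limma called 0 of the 9 genes at an adjusted p under 0.05, beside 0.0552% of all genes (0.00502% higher and 0.0502% lower in PDAC). At an unadjusted p under 0.05 it gave 1, Rarg, beside 13.4% of all genes. Arrays of one group all lay beyond those of the other for 3 of the 9 genes (Rarg and Aldh3a1 higher, Aldh1a2 lower in PDAC), beside 26.4% of all genes (13.6% higher, 12.8% lower). The median log2 fold change, PDAC minus normal ductal, was 0.24 over the 9 genes and 0.01 over all genes. The counts are small, and the shares of genes called or not overlapping are close to those of all genes.

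**Figure D2:**
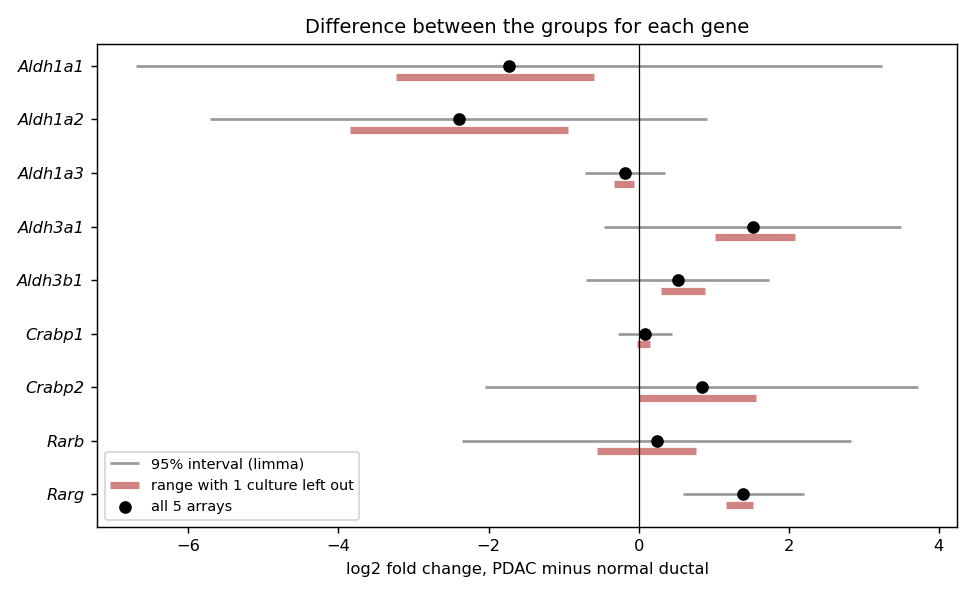
Log2 fold change of each gene, PDAC minus normal ductal (horizontal axis). Black points are the values from all 5 arrays, grey lines their 95% intervals from limma, and red bars the range when each culture was left out in turn. Rarg is the only 1 of the 9 whose interval, 0.60 to 2.20, does not include 0, and the red bars of Rarb and Crabp1 cross 0.

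Among the retinal dehydrogenases, Aldh1a1, the enzyme best known as a marker of progenitor-like cells, was the most variable. Its log2 signal was 9.02 and 8.78 in N1 and N2, and 4.93, 6.42 and 10.18 in P1, P2 and P3. Thus 2 PDAC cultures lay below and 1 above both normal cultures, and the groups overlap. The log2 fold change was -1.72 (SE 1.77, 95% interval -6.69 to 3.25, adjusted p = 0.676 by limma), and it was -3.23 without P3 and -0.60 without P1. In RNA from a whole culture, a lower signal from fewer cells of a type and one from less RNA per cell cannot be told apart. The mean signal of 10 duct markers was 10.31 and 10.04 in the normal and 6.45, 7.53 and 9.19 in the tumour cultures, so the same PDAC cultures were low and high for the markers as for Aldh1a1. The part of duct marker content in the Aldh1a1 result was not tested. The genes whose array pattern was closest to that of Aldh1a1, by the root mean square distance of log2 signals over the 5 arrays after centring each gene, were Tspan8 (0.47), Muc1 (0.49) and Tspan13 (0.55).

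Aldh1a7 is a close paralog of Aldh1a1, and probes for such similar genes can be shared. Its log2 signal was 5.10 and 5.01 in the normal and 4.51, 4.79 and 5.599 in the tumour cultures, the same order of PDAC cultures over a narrower span (log2 fold change -0.09, SE 0.37, adjusted p = 0.941 by limma). Whether either probe set also reads the other gene was not tested. Aldh1a1 lies at chr19:20492583-20643463 in GRCm38.

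Aldh1a2, the retinal dehydrogenase of embryonic mesenchyme and mesothelium, had a log2 signal of 7.51 and 10.42 in N1 and N2, and of 7.36, 5.36 and 6.996 in the PDAC replicates. Every PDAC culture lay below both normal cultures, but the lower normal ductal value was close to the highest PDAC value. The log2 fold change of -2.40 (SE 1.18, 95% interval -5.71 to 0.92, adjusted p = 0.526 by limma) was -0.94 without N2 and -3.85 without N1. The closest patterns were those of Il11 (distance 0.42), Ch25h (0.42) and Lama2 (0.50), each also high in N2.

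That culture stood apart in its markers as well. Of 13 fibroblast and stellate cell markers, 12 were more than 1 log2 unit higher in N2 than in N1, with list means of 9.86 and 7.25, and the tumour cultures lay between 9.01 and 9.32. Of 7 mesothelial markers, 3 were more than 1 higher, with list means of 7.08 and 6.53. Msln was lower in N2 than in N1 (10.90 and 11.25), and Upk3b was equal in both (5.72). The mesothelial list mean was highest in P3 (8.42), where Aldh1a2 stood at 6.996. Acinar (6.98 against 5.33, 4 of 10 markers more than 1 higher), islet (7.70 against 6.19, 5 of 9) and endothelial lists (6.85 against 5.88, 4 of 10) were higher there too, and the leukocyte list less so (6.18 against 5.76, 1 of 9). The acinar gene Ctrb1 stood at 12.26 in N2 and 6.08 in N1. The fibroblast list was mixed in the tumour cultures, where Aldh1a2 was low. Col1a1 lay above N2 in all 3 (12.37, 11.45 and 11.82, beside 11.33), while Des (5.02, 5.47 and 5.28, beside 8.40) and Fap (5.62, 4.21 and 4.95, beside 7.51) lay below it. The part of the other cell types in the Aldh1a2 value was not tested.

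**Figure D3:**
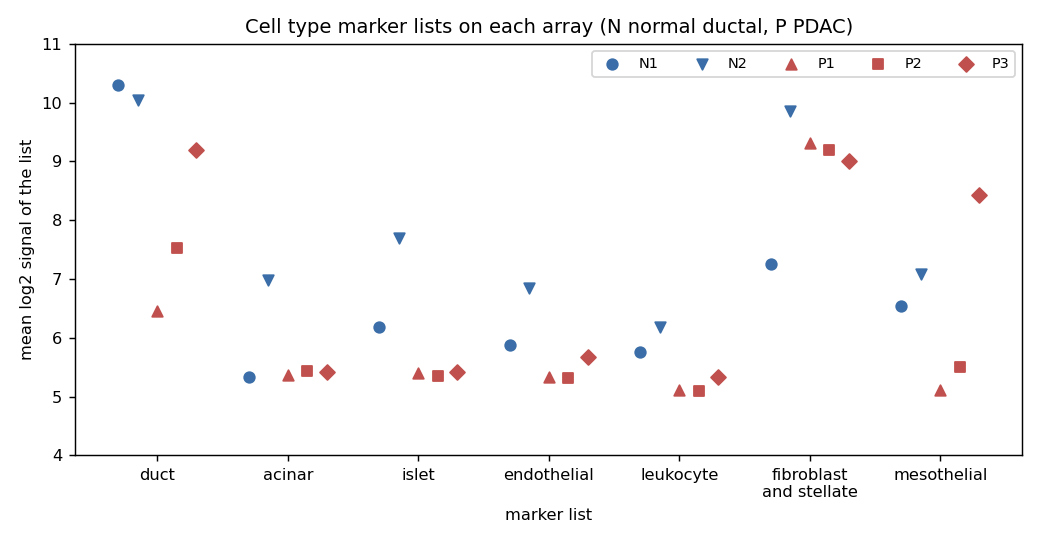
Mean log2 signal (vertical axis) of each list of cell type markers (horizontal axis) on each array, N1 and N2 normal ductal in blue and P1 to P3 PDAC in red. N2 lies above N1 for every list but duct, P1 is lowest for duct at 6.45, and P3 is highest for the mesothelial list at 8.42.

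Aldh1a3, the third enzyme of the group, hardly varied. Its log2 signal was 6.88 and 7.05 in the normal and 6.55, 6.72 and 7.08 in the tumour cultures, overlapping groups with a log2 fold change of -0.18 (SE 0.19, 95% interval -0.71 to 0.35, adjusted p = 0.683 by limma). The interval does not include a fall of 1 log2 unit. With Aldh1a3 nearly level, the order of the Aldh1a genes by the size of their spread over the arrays was Aldh1a1 (range 5.26), Aldh1a2 (5.07) and Aldh1a3 (0.53).

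Both Aldh3 genes had higher means in PDAC, and neither passed the test. Aldh3a1, an enzyme of the cornea and stomach that oxidises aromatic and medium-chain aldehydes, stood at 5.22 and 5.03 in the normal and at 5.53, 6.75 and 7.67 in the tumour cultures. All PDAC arrays lay above both normal ductal arrays, P1 by little. Its log2 fold change of 1.52 (SE 0.71, 95% interval -0.46 to 3.50, adjusted p = 0.497 by limma) was 2.08 without P1 and 1.01 without P3. Sema3a (distance 0.21), Tmem100 (0.26) and Sfrp4 (0.26) had the closest patterns.

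Aldh3b1, which acts on lipid-derived aldehydes at membranes, had a log2 signal of 6.95 and 6.61 in the normal and of 7.59, 6.56 and 7.75 in the tumour cultures. P1 and P3 were above and P2 below both normal cultures. The log2 fold change was 0.52 (SE 0.44, adjusted p = 0.607 by limma), between 0.30 and 0.89 with 1 culture left out. Its nearest pattern was that of Gulp1 (distance 0.11), followed by Ephb6 (0.15) and Ppp1r15b (0.18).

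The rest of the aldehyde dehydrogenase family varied less over the arrays. Of the other 16 genes, all measured, limma called 0 over all genes, and at an unadjusted p under 0.05 there were 1 higher and 1 lower, beside 6.50% and 6.86% of all genes. The median log2 fold change was 0.03, and the median range over the arrays was 0.65, beside 0.49 for all genes and 2.64 for the 9 genes. The mitochondrial enzyme Aldh2, which clears acetaldehyde, had 0.55 (SE 0.18, adjusted p = 0.335), from 11.34 and 11.16 in the normal to 11.58, 11.76 and 12.07 in the tumour cultures. Aldh1b1, a mitochondrial enzyme that also marks pancreatic progenitor cells, had -0.31 (SE 0.04, adjusted p = 0.165), with the arrays of the groups apart.

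Next by p were Aldh1l2, an enzyme of mitochondrial folate metabolism, and Aldh5a1, which takes part in the breakdown of GABA. Aldh1l2 stood at 6.57 and 6.78 in the normal and at 8.85, 9.04 and 7.29 in the tumour cultures (log2 fold change 1.72, SE 0.63, adjusted p = 0.388 by limma), the largest difference of the 16. For Aldh5a1 the log2 fold change was -0.26 (SE 0.11, adjusted p = 0.431 by limma).

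**Figure D4:**
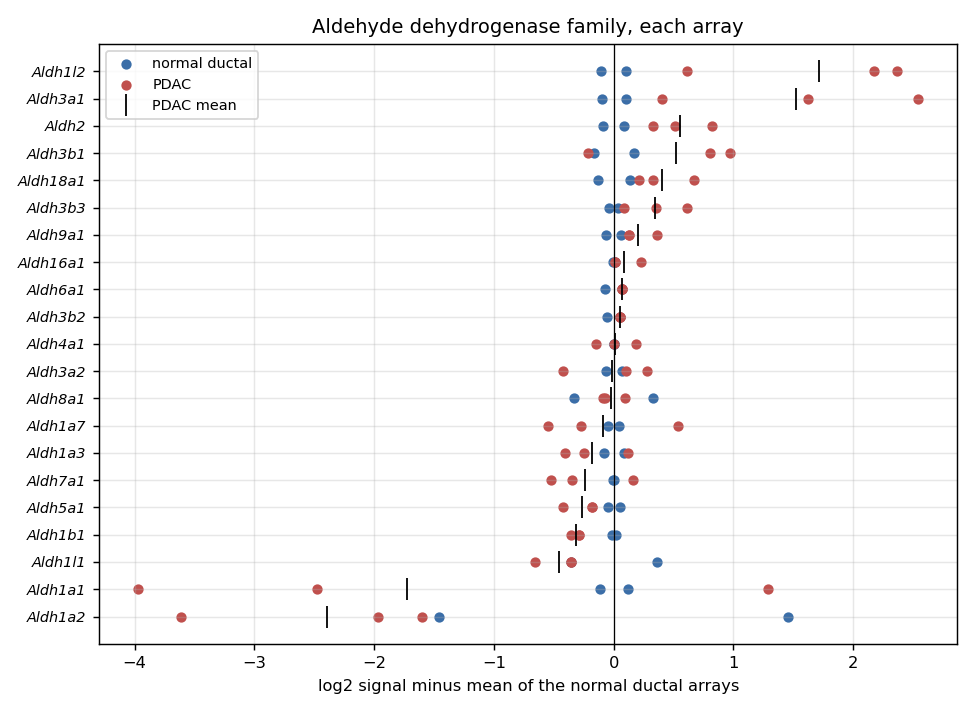
Aldehyde dehydrogenase genes (vertical axis, ordered by mean difference) with the log2 signal of each array minus the mean of the normal ductal arrays (horizontal axis). Blue points are normal ductal arrays, red points PDAC arrays and black ticks PDAC means. Aldh1a1 and Aldh1a2 spread most, and Aldh1l2 and Aldh3a1 have the highest PDAC means, at 1.72 and 1.52.

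Of the retinoic acid binding proteins, Crabp2, which hands the acid to receptors in the nucleus, was high in 1 culture. Its log2 signal was 6.45 and 6.38 in the normal and 7.03, 8.93 and 5.80 in the tumour cultures, so P2 was high and P3 below every other array. Its log2 fold change of 0.84 (SE 1.03, 95% interval -2.05 to 3.73, adjusted p = 0.716 by limma) was 0.0010 without P2 and 1.57 without P3. Xlr (distance 0.29), Itgbl1 (0.34) and Kctd4 (0.35) were closest in pattern.

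Crabp1, the other binding protein, gave a flat signal. It was listed at 6.23 on both normal ductal arrays and on P1, with 6.53 in P2 and 6.18 in P3 (log2 fold change 0.08, SE 0.13, adjusted p = 0.777 by limma), and without P2 the sign turned (-0.02). Exactly equal values on 3 or more arrays occurred for 5696 of the 19938 genes and for 1 of the 9, Crabp1. No detection call was used here, so whether Crabp1 was above background was not tested.

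Of the receptors, Rarg, the retinoic acid receptor best known from epithelia and skin, had the most even difference between the groups. Its log2 signal was 7.54 and 7.29 in the normal and 8.58, 9.29 and 8.58 in the tumour cultures, from means of 7.42 ± 0.18 (SD, n = 2) and 8.82 ± 0.41 (SD, n = 3). Every PDAC culture was at least 1 log2 unit above both normal cultures. On the log2 scale the difference was 1.40 (SE 0.29, 95% interval 0.60 to 2.20), a fold of 2.63. It did not pass the threshold (adjusted p = 0.218 over all genes by limma, unadjusted 0.00865). By p it ranked 790 of 19938. Over 14 alternatives the log2 fold change lay between 1.16 and 1.52 and the adjusted p between 0.102 and 0.458. The filters, other variance models and averaged probe sets among these cannot change the fold change of Rarg, and the replicate block gives its value without P3. Slc30a4 (distance 0.12), Cmc2 (0.14) and Sspn (0.16) had the closest patterns, and Rarg lies at chr15:102234938-102257522.

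Rarb, the receptor with the DR5 motif printed above, stood at 7.53 and 7.18 in the normal and at 7.06, 6.54 and 9.19 in the tumour cultures. P3 was far above, and the other tumour cultures below, both normal cultures. Its difference of 0.24 on the log2 scale (SE 0.93, 95% interval -2.35 to 2.83, adjusted p = 0.938 by limma) turned to -0.56 without P3. The pattern nearest to Rarb over the 5 arrays was that of Rnf43, which encodes a membrane ubiquitin ligase that removes Wnt receptors, at a distance of 0.04, with log2 signals of 6.69, 6.42, 6.28, 5.79 and 8.46 in N1, N2, P1, P2 and P3. Trim12a (0.20) and Tnip3 (0.20) followed. The remaining receptor gene Rara, outside the rule for named genes, was level (8.77 and 8.83 in the normal, 8.97, 8.76 and 8.599 in PDAC; log2 fold change -0.02, SE 0.14).

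The other 12 measured receptors and cofactors of 14 listed had a median log2 fold change of -0.04. Limma called 0 of them over all genes, and before adjustment 1 higher and 1 lower at p under 0.05, beside 6.50% and 6.86% of all genes. Rxrb, a partner of the retinoic acid receptors, had 0.26 (SE 0.09, adjusted p = 0.353), and Rxra, another partner, 0.33 (SE 0.17, adjusted p = 0.535). The coactivator Ncoa2 had -0.38 (SE 0.08, adjusted p = 0.239), and the corepressor Nrip1 -0.45 (SE 0.24, adjusted p = 0.550). These differences are smaller than that of Rarg.

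Upstream of the Aldh1a enzymes, 9 of 10 listed genes of retinol uptake and storage were measured, with a median log2 fold change of 0.32. Limma called 0 of these over all genes, beside 0.0552% of all genes. At an unadjusted p under 0.05 there were 0, beside 13.4% of all genes. By p the first to be named were Dgat1, which esterifies retinol among other lipids (0.32, SE 0.13, adjusted p = 0.427), and Fabp5, which can carry retinoic acid (1.14, SE 0.50, adjusted p = 0.464). On the other side were Ttr, the blood partner of the retinol carrier and also a product of islet cells (-0.96, SE 0.42, adjusted p = 0.472), and Stra6l (-0.09, SE 0.06, adjusted p = 0.550). Ttr stood at 5.71 in N2 and at 4.46 in N1. Islet, acinar, endothelial and fibroblast lists were all higher in N2 than in N1, and their part in the Ttr value was not tested.

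Stra6 and Rbp4 were named after their values were seen. Stra6, the membrane receptor that takes retinol into cells, stood at 7.21 and 7.10 in the normal, at 7.52 and 7.36 in P1 and P2, and at 11.19 in P3. Rbp4, the retinol carrier of blood, was at 6.09 and 6.13 in the normal and at 7.52, 7.20 and 9.98 in the tumour cultures (log2 fold change 2.12, SE 0.996, adjusted p = 0.502 by limma). For both genes all PDAC arrays lay above the normal ductal arrays, as for 13.6% of all genes, though for Stra6 by little in P1 and P2. Both were far higher in P3 than elsewhere, the culture in which Aldh1a1 and Rarb were also highest.

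The 20 genes of retinol and retinal interconversion, all measured, had a median log2 fold change of 0.05, with 0 called by limma over all genes and before adjustment 0 higher and 1 lower at p under 0.05, beside 6.50% and 6.86% of all genes. That gene was Bco1, which cleaves beta-carotene to retinal (-1.37, SE 0.35, adjusted p = 0.278). Bco1 stood at 6.06 and 7.12 in N1 and N2 and at 5.23, 5.22 and 5.19 in P1 to P3. Adh1, an alcohol dehydrogenase that oxidises retinol, had -0.86 (SE 0.51, adjusted p = 0.550), with 5.10 and 6.60 in N1 and N2. Adh1 was at 4.76 in P1, and its values in N1, P2 and P3 were exactly equal. Adh7, a retinol-oxidising alcohol dehydrogenase of the upper gut, stood at 6.80 and 6.18 in the normal and at 8.69, 9.70 and 7.44 in the tumour cultures (2.12, SE 0.77, adjusted p = 0.381), and Adh5 had 0.35 (SE 0.17, adjusted p = 0.510). Rdh10, which oxidises retinol to retinal and was named after its values were seen, was at 12.05 and 11.90 in the normal, 9.47 and 9.56 in P1 and P2, and 12.17 in P3. P1 and P2 were low, as for Aldh1a1, and P3 was close to the normal cultures.

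**Figure D5:**
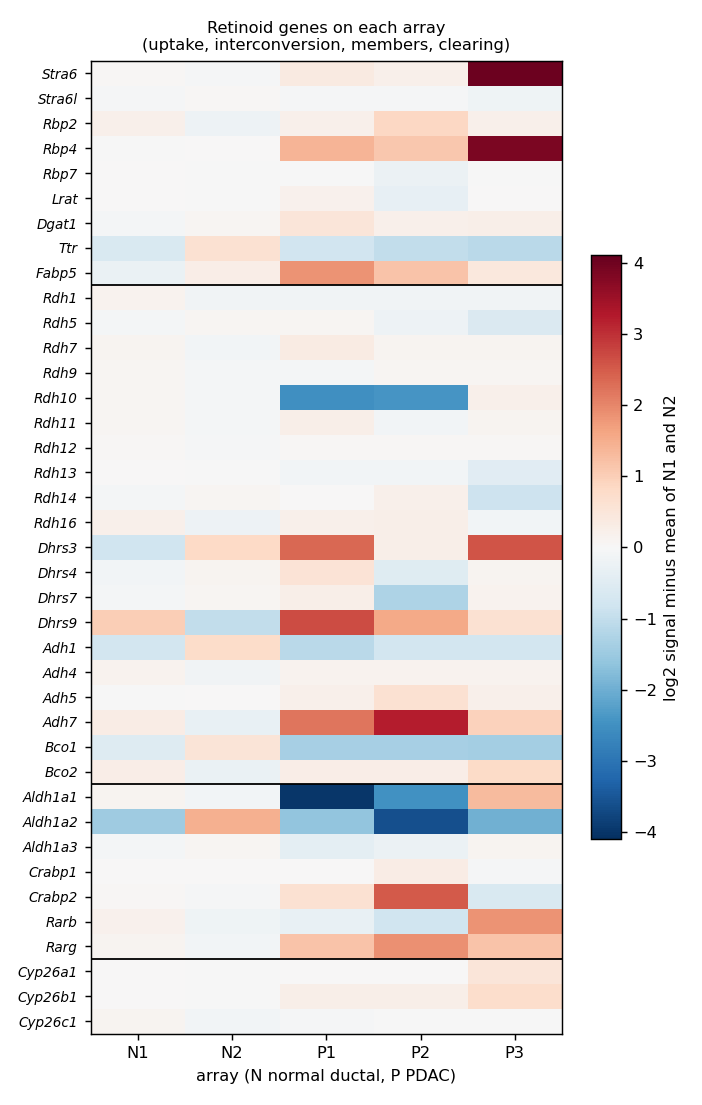
Log2 signal of each array (columns; N normal ductal, P PDAC) minus the mean of N1 and N2, for genes (rows) of retinol uptake and storage, retinol and retinal interconversion, the Aldh1a, Crabp and Rar genes, and retinoic acid clearing, parted by black lines. Red is higher and blue lower. P3 holds the highest Stra6 (11.19), Rbp4 (9.98), Aldh1a1 (10.18) and Rarb (9.19), and P1 and P2 are low for Rdh10 and Aldh1a1.

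The Cyp26 enzymes clear retinoic acid, and all 3 were measured. Limma called 0 of them over all genes, beside 0.0552% of all genes. At an unadjusted p under 0.05 there were 0, beside 13.4% of all genes. Cyp26a1, whose promoter window is printed above, was listed at 4.42 and 4.39 in the normal cultures. It was listed at 4.42, 4.42 and 4.89 in the tumour cultures (log2 fold change 0.17, SE 0.18, adjusted p = 0.678 by limma). Its values in N1, P1 and P2 were exactly equal, and whether Cyp26a1 was above background was not tested. Cyp26b1 was at 5.94 and 5.92 in the normal and at 6.15, 6.15 and 6.66 in the tumour cultures (0.39, SE 0.19, adjusted p = 0.527). Cyp26c1 had -0.01 (SE 0.08, adjusted p = 0.969). Cyp26a1 and Cyp26b1 shared with Rarb the highest value in P3, over much smaller steps.

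Other genes known to respond to retinoic acid gave no common direction. Of 17 listed, 15 were measured, with a median log2 fold change of -0.05, 0 called by limma over all genes, and before adjustment 2 higher and 2 lower at p under 0.05, beside 6.50% and 6.86% of all genes. The nuclear receptor gene Nr2f1 had 1.43 (SE 0.23, adjusted p = 0.185), from 5.25 and 5.59 in the normal to 7.21, 6.67 and 6.68 in the tumour cultures, and Rai14 had 0.71 (SE 0.19, adjusted p = 0.287). The transcription factor gene Ets1 had -0.97 (SE 0.26, adjusted p = 0.289) and the transglutaminase gene Tgm2, a classic retinoic acid target, -1.25 (SE 0.36, adjusted p = 0.311). Tgm2 stood at 10.51 and 10.33 in the normal and at 9.45, 8.55 and 9.51 in the tumour cultures, with P1 and P3 close to each other.

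P3, which held the highest Aldh1a1, Rarb and Stra6, was also the tumour culture with the highest list means of duct and mesothelial markers. The duct list mean was 9.19 there, and Krt19, the duct keratin, stood at 11.74 beside 11.46 and 11.37 in the normal cultures. It was the only 1 of the 10 measured duct markers for which P3 lay above both normal cultures, and Krt8 (10.45, beside 12.53 and 12.42) and Cdh1 (10.76, beside 12.32 and 11.96) lay below both. The list mean of 7 mesothelial markers was 8.42, beside 5.12 (P1), 5.51 (P2), 6.53 (N1) and 7.08 (N2). Of these, Upk3b (10.41, against at most 5.72 elsewhere), Upk1b (10.77, against at most 7.58) and Gpm6a (9.32, against at most 4.17) were high in P3 alone, while the other 4 were not. Wt1 (7.58) and Lrrn4 (5.93) were lower there than in N2 (7.82 and 6.98), and Msln (11.18) was below N1 (11.25). Muc16 was low in all 3 tumour cultures, at 3.79 in P3 beside 6.36 and 6.41 in the normal cultures (log2 fold change -2.67, SE 0.05, adjusted p = 0.0170 by limma). The part of these cells or genes in the values of Aldh1a1, Rarb and Stra6 was not tested.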

How the data were processed

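The authors deposited log2 signals for 35556 probe sets on each of 5 arrays, made with Transcriptome Analysis Console 1.0.0.234 and the mm10 build, per the submitters' processing notes. How background was corrected, how arrays were normalized and the log base are not stated in those notes or the labels. Base 2 was read from the range of the values (0.727 to 13.9), and another base would change the fold changes. Array medians lay between 5.90 and 6.02. Of the probe sets, 21789 carried 1 gene symbol in the platform annotation, and the probe set with the highest mean was kept, which gave 19938 genes. R 4.3.3 and limma 3.58.1 gave a two-sided moderated test per gene (eBayes, trend on signal) with p adjusted by Benjamini-Hochberg across all 19938 and called under 0.05, checked on simulated data. Adjusted p-values in the text are from this fit, and intervals are at 95%. Alternatives were other scalings (quantile, common median), filters on low signal, other variance models, averaged probe sets, array weights, a replicate block, and leaving out each culture.

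From each pathway list the genes with the 2 smallest p in each direction are named, with the 3 genes nearest in pattern to a member; the patterns nearest to Aldh1a3 and Crabp1, which were flat, are left out. The members and lists were chosen with earlier results of these data known, and lists are described by counts and medians without a test. Promoter windows were searched with Python 3.11.15. Marker lists cover duct, acinar, islet, endothelial, leukocyte, fibroblast and mesothelial cells.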

Additional observations from a re-analysis of the deposited data

How the results depend on the processing

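In all 14 alternatives limma called 0 of the 9 genes, and 7 of them kept their direction. The low-signal filters, other variance models and averaged probe sets cannot change these fold changes, as each of the 9 genes has 1 probe set. Direction could therefore change only in the remaining alternatives. Only PDAC has a replicate 3, so the replicate block gives the same fold changes as leaving out PDAC replicate 3. Rarb turned to -0.040 with array weights and to -0.56 with the replicate block, which is the value without PDAC replicate 3. It lay between -0.56 and 0.77 with 1 culture left out. Crabp1 lay between -0.025 and 0.15, negative without PDAC replicate 2. Over all genes, 11 were called as deposited, 42 after quantile normalization, 80 with a common array median, 42 without the lowest 50% of genes, 3 with array weights, 0 with the replicate block, and 0 to 1287 with 1 culture left out; for these the cause was not tested, except that the filter tests fewer genes. Over all genes the median difference was 0.01 in the deposited values and 0.10 with a common array median. The median of the 9 genes lay between 0.0010 and 0.41 with 1 culture left out. The filter at 25% already took out Cyp26a1, and the filter at 50% took out Aldh3a1 and Crabp1 and all 3 Cyp26 genes.

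The replicate numbers are shared by 2 cultures of each group. Deviations from the group means correlated at -0.18 for replicate 1 and -0.04 for replicate 2. With 2 normal arrays the deviations of N1 and N2 mirror each other, and whether cultures of the same number share a batch was not tested. List medians moved by more than their spread between arrays as follows. Retinol uptake moved from 0.32 to 0.78 and 1.34 without the lowest 25% and 50% of genes, and lay between 0.21 and 0.28 with 1 culture left out. Retinol interconversion moved from 0.05 to 0.14 with a common array median and to -0.16 without the lowest 25%, with -0.025 to 0.094 over cultures left out. Receptors and cofactors moved from -0.035 to 0.058 with a common array median and to 0.071 with the replicate block, with -0.062 to 0.071 over cultures left out. The response list lay between -0.085 and 0.17 over cultures left out. Other aldehyde dehydrogenases moved from 0.03 to 0.12 under quantile normalization and 0.13 with a common array median, with -0.0015 to 0.10 over cultures left out.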
